A study of Mus musculus with 2 samples.

Results

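Conventional type 2 dendritic cells (cDC2) were described in leukocytes sorted from mouse liver tumours. A barcode with at least 200 genes and under 15% of its unique molecular identifiers (UMIs) from mitochondrial genes was called a cDC2 on raw UMIs. It needed at least 1 UMI of Flt3, at least 2 of the lectins Cd209a, Mgl2 and Clec10a summed, and at least 10 of the class II gene H2-Ab1. It could hold at most 4 C1q UMIs (C1qa, C1qb and C1qc), at most 1 of Xcr1 and Clec9a, at most 1 of Siglech, and 0 of Cd3e and Cd79a. The members were thus selected on measured values. They numbered 96 of 11350 kept barcodes, of which 63 came from the library of mice fed Akkermansia muciniphila (AKK) and 33 from the library of mice given phosphate-buffered saline (PBS).

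Both groups were C57BL/6 mice on a methionine- and choline-deficient (MCD) diet that carried orthotopic liver tumours of RIL-175, a mouse hepatocellular carcinoma line with a luciferase label. The AKK group received 5000000000 colony-forming units of the gut bacterium by mouth and the PBS group the vehicle. Mice were dosed from 2 weeks before the MCD diet began, ate that diet for 2 weeks before implantation, and were not dosed for 6 days after surgery. Live CD45-positive cells were sorted and profiled with the 10x Genomics 3′ v3 kit, 1 library per group. The tumours arise from an implanted line and not from the liver itself, and the number of mice behind each library is not known here. The animals, the library and the treatment cannot be told apart, and nothing was tested between the groups. The words higher and lower compare 1 library with the other, and intervals are at 95% and cover counting error alone.

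cDC2 develop from bone marrow precursors under the growth factor sensed by the receptor Flt3. They take up antigen, present it on MHC class II and prime CD4 T cells, a task that depends on the transcription factor Irf4, whereas cDC1 depend on Irf8 and cross-present antigen to CD8 T cells. On maturation both kinds gain the chemokine receptor Ccr7, which guides them to lymph nodes, and raise costimulatory and checkpoint ligands for T cells. Cd209a (a mouse relative of DC-SIGN), Mgl2 (CD301b) and Clec10a (CD301a) are C-type lectins that bind sugars on antigens.

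The 63 AKK cDC2 held 1457215 UMIs and the 33 PBS cDC2 866011. A cell's total ran from 3665 to 56243 UMIs in AKK cDC2 (median 21757) and from 5145 to 53432 in PBS cDC2 (median 23645), with medians of 4425 and 4526 genes. The kept barcodes of the libraries held 74272200 UMIs in AKK and 63940877 in PBS, with medians of 6639 and 6868 per barcode. Of the barcode sequences, 8 were shared by the libraries, and 0 of these were cDC2. cDC2 were 0.967% of kept AKK barcodes (exact interval 0.744 to 1.24) and 0.683% of kept PBS barcodes (0.470 to 0.958), a difference of 0.284 percentage points (Newcombe interval -0.0620 to 0.616). The interval of that difference includes 0. For each C1q macrophage (at least 20 C1q UMIs) there were 0.360 cDC2 in AKK (0.266 to 0.483) and 0.129 in PBS (0.0872 to 0.186), a setting in which the macrophages themselves numbered 175 in AKK and 255 in PBS. For each cDC1 there were 2.25 cDC2 in AKK (1.42 to 3.65) and 1.74 in PBS (0.959 to 3.23), and for each classical monocyte 0.299 (0.222 to 0.397) and 0.236 (0.156 to 0.346), with overlapping intervals.

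The values used by the rule are given as a description. Flt3, which lies on chr5:147330741-147400489 of mm10, had a median of 2 UMIs per cell in AKK cDC2 (range 1 to 25) and 3 in PBS cDC2 (1 to 18), and 26 AKK and 10 PBS cells sat at the limit of 1. The lectin sum had a median of 21 UMIs in AKK (2 to 79) and 15 in PBS (2 to 82), with 1 cell of each library at the limit of 2. H2-Ab1 had medians of 91 UMIs in AKK (11 to 261) and 136 in PBS (10 to 327). Just outside the rule, 56 AKK and 39 PBS barcodes failed on Flt3 alone, as they held 0 Flt3 UMIs. The lectin sum alone kept out 16 AKK and 13 PBS barcodes, the limit on Xcr1 and Clec9a 10 and 14, that on Siglech 12 and 8, and the C1q limit 6 and 11. The Flt3 criterion was thus the one that most often decided membership.

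Genes outside the rule were used to check the label, as UMIs summed over the cells of a population and scaled to a common library total (CPM). Zbtb46, a transcription factor of conventional dendritic cells, stood at 64.5 CPM in AKK and 73.9 CPM in PBS cDC2, against 5.51 and 1.12 CPM in classical monocytes. Irf4 stood at 122 CPM in AKK and 102 CPM in PBS cDC2, against 4.63 and 0 CPM in cDC1. Irf8, the factor of the cDC1 line, was at 174 CPM in AKK and 121 CPM in PBS cDC2, against 1440 and 1306 CPM in cDC1. Sirpa, an inhibitory receptor of type 2 cells, had 317 CPM in AKK and 216 CPM in PBS cDC2, and 64.8 and 48.7 CPM in cDC1. The cDC1 adhesion gene Cadm1 had 3.43 CPM in AKK and 2.31 CPM in PBS cDC2, against 762 and 979 CPM in cDC1. By these genes the cells lay with dendritic cells, nearer to type 2 than to type 1. Not all cDC1 genes were low. A list of cDC1 genes, Irf8 among them, summed to 1539 CPM in AKK and 1505 CPM in PBS cDC2, with Gcsam, Cxcr3 and Snx22 at 0 in both. The list's sum in cDC1 is not given here. Its member Wdfy4 had 484 CPM in AKK and 471 CPM in PBS cells of subgroup 1 (described below). In subgroup 2 Wdfy4 had 729 and 1117 CPM. The list also holds Itgae, whose levels by subgroup are given below. Esam, a surface marker of a mouse splenic cDC2 subset, was at 0 UMIs in both libraries. Clec4a4, a cDC2 marker, was near the floor, with 6 UMIs in AKK and 6 in PBS cells of the main cluster (described below).

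Markers of other cells were present too, beside a sum of 4277 CPM in AKK and 4214 CPM in PBS for the list of conventional dendritic cell identity. The macrophage list summed to 303 CPM in AKK cDC2 (0 to 3895 CPM per cell) and 327 CPM in PBS cDC2 (0 to 1543), with Cd5l, Vsig4 and Folr2 at 0 in both. The monocyte list summed to 1786 CPM in AKK (43.7 to 6469 per cell) and 1339 CPM in PBS (88.6 to 3934), with 0 of its genes at 0. Of these genes Vcan stood at 4.12 and 11.5 CPM in cDC2, against 679 and 687 CPM in classical monocytes, whereas Ccr2 stood at 261 and 56.6 CPM, against 868 and 630 CPM. Lyz2, a gene of monocytes and macrophages, had 316 and 157 CPM in cDC2, against 5025 and 3965 CPM in classical monocytes. The list of neutrophil RNA summed to 3407 CPM in AKK (672 to 10432 per cell) and 4051 CPM in PBS (1182 to 10136). Most of that sum was Il1r2, a decoy receptor for interleukin-1, with 2599 CPM in AKK and 2947 CPM in PBS cDC2. B and plasma cell genes summed to 1292 CPM in AKK and 387 CPM in PBS, T and NK cell genes to 156 and 206 CPM, and mast cell genes to 4.80 and 5.77 CPM. Genes of plasmacytoid dendritic cells summed to 820 CPM in AKK and 664 CPM in PBS. Alb was at 0 UMIs in both, and tumour and hepatocyte genes summed to 41.9 CPM in AKK and 52.0 CPM in PBS. The part that RNA of other cells had in the results below was not tested.

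When all kept barcodes were clustered into 22 clusters, 88 of the 96 cDC2 (91.7%) fell into 1 cluster of barcodes, 59 from AKK and 29 from PBS. That cluster was led by Pkib, Plet1, Htr7 and class II genes, and cDC2 made up 22.3% of it. A further 5 cells (2 AKK, 3 PBS) lay in a cluster led by Arg1, Mmp12 and C1qa and 3 cells (2 AKK, 1 PBS) in one led by Plcb1 and Vcan. The label is thus doubtful for these 8 cells, whose clusters carry macrophage and monocyte genes. They gave 4.10% of the AKK and 11.2% of the PBS cDC2 UMIs. Results that rest on them are given with and without them.

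The 96 cells differed in which lectins of the rule they held. Cd209a lies on chr8:3743397-3748984 and the neighbours Mgl2 and Clec10a on chr11:70130329-70137550 and chr11:70156197-70170834. A Cd209a UMI without Mgl2 was found in 22 AKK cells (34.9%) and 4 PBS cells (12.1%). Mgl2 without Cd209a was found in 26 AKK (41.3%) and 21 PBS cells (63.6%), both in 12 (19.0%) and 7 (21.2%), and neither in 3 and 1. Clec10a accompanied either kind: 19 AKK and 4 PBS cells held Cd209a and Clec10a without Mgl2, and 13 AKK and 11 PBS cells held Mgl2 and Clec10a without Cd209a. Cells with Cd209a alone of the pair were shallower (median 16698.5 UMIs in AKK, 15196 in PBS) than those with Mgl2 alone (26507.5 in AKK, 23645 in PBS). After thinning every cell to 12501 UMIs, which left 56 AKK and 30 PBS cDC2, Cd209a was seen in 48.2% of AKK and 33.3% of PBS cells, and Mgl2 in 58.9% and 76.7%. Before thinning the shares were 54.0% and 33.3% for Cd209a and 60.3% and 84.8% for Mgl2. T cells, which should lack both lectins, gave thinned shares of 0.500% (AKK) and 0% (PBS, 0 of 119 cells) for Cd209a, and 1.5% and 1.68% for Mgl2. The cells had been selected on these lectins, so nothing is read from the gap to T cells. The rule also left out cells low in all of Cd209a, Mgl2 and Clec10a, so a cell without one had to hold another. The split between Cd209a and Mgl2 was thus partly set by the selection and is only described. How reads shared between members of the Cd209 family, or between Mgl2 and Clec10a, were counted is not stated.

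**Figure D1:**
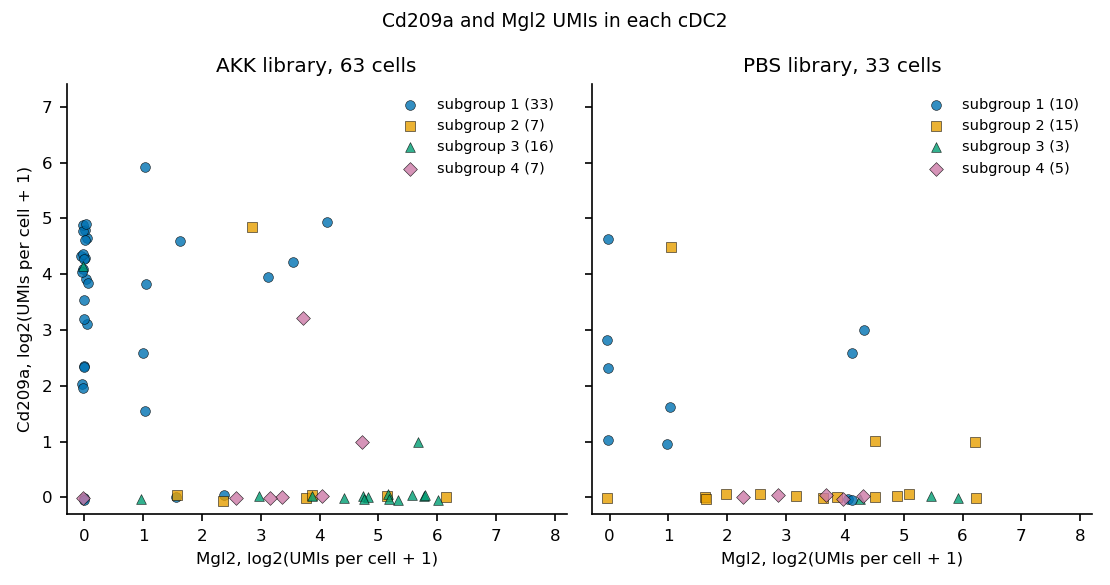
Each point is 1 cDC2, AKK library left and PBS library right. The x axis gives Mgl2 and the y axis Cd209a as log2(UMIs per cell + 1), with a small jitter to part points that coincide, and symbols mark the 4 subgroups of a clustering that left the rule genes out. Most cells lie along one axis: 22 AKK and 4 PBS cells have Cd209a without Mgl2, and 26 AKK and 21 PBS cells have Mgl2 without Cd209a. The rule left out cells low in all of its lectins, which partly sets this pattern.

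Genes that go with this split were chosen in the AKK library (at least 40 UMIs, a UMI in at least 30% of cells of the higher kind, the 15 on each side with intervals farthest from 1) and then measured in the PBS library, which the choice did not use. On the Cd209a side, Ccr2, the receptor that brings monocytes and their kin out of the marrow, had 747 CPM in AKK cells with Cd209a alone and 5.20 CPM in those with Mgl2 alone. In PBS cells the same gene had 363 and 1.77 CPM, a ratio of 205 (33.2 to 8469, from 22 UMIs and 1 UMI). Pid1, a phosphotyrosine-interaction adaptor, had 445 and 8.84 CPM in PBS cells (ratio 50.4, 19.1 to 168). Cd7, a surface protein of lymphocytes that some dendritic cells also carry, had 165 and 3.54 CPM in PBS cells (ratio 46.6, 9.94 to 438). Ahnak, a large scaffold protein, had 1023 and 97.3 CPM in PBS cells (ratio 10.5, 7.20 to 15.4). Of the 14 genes described here, 13 kept the direction in PBS and 9 had an interval above 1. The exception was Cd209d, at 0 UMIs in PBS cells of both kinds. Mrc1, the mannose receptor, had a PBS ratio of 1.04 (0.0236 to 7.48) from 1 and 9 UMIs. The PBS side rests on 4 cells with Cd209a alone, 1 of them outside the main cluster. Without the outside cells 11 of the 14 genes kept the direction in PBS and 8 had an interval above 1, and Ccl9 and Mrc1 were at 0 UMIs in the 3 PBS cells with Cd209a alone. Ccr2 then had 509 and 1.77 CPM, and Pid1 231 and 8.84 CPM.

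On the Mgl2 side, all 15 genes kept the direction in PBS and 12 had an interval below 1, or 11 without the outside cells. Itgae, the integrin CD103, had 1 UMI in the AKK cells with Cd209a alone and 434 CPM (334 UMIs) in those with Mgl2 alone; in PBS it had 0 UMIs and 341 CPM. Ly75, the uptake receptor DEC-205, had 2.62 and 323 CPM in AKK cells, and 0 and 244 CPM in PBS cells. Plet1, a surface protein of intestinal dendritic cells, had 65.5 and 1137 CPM in AKK cells, and 0 and 1035 CPM in PBS cells. Creb5, a CREB-family transcription factor, had 44.6 and 1360 CPM in AKK cells, and 33.0 and 1187 CPM in PBS cells. Mmp12, a macrophage elastase, had 7.86 and 759 CPM in AKK cells, and 66.0 and 617 CPM in PBS cells. H2-DMb2, a chaperone of peptide loading on class II, did not hold in PBS, with 231 and 297 CPM (ratio 0.78, 0.42 to 1.34). The cDC2 of these tumours thus held cells with Ccr2, Cd7 and Pid1 and cells with Itgae, Ly75 and Plet1, in both libraries.

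**Figure D2:**
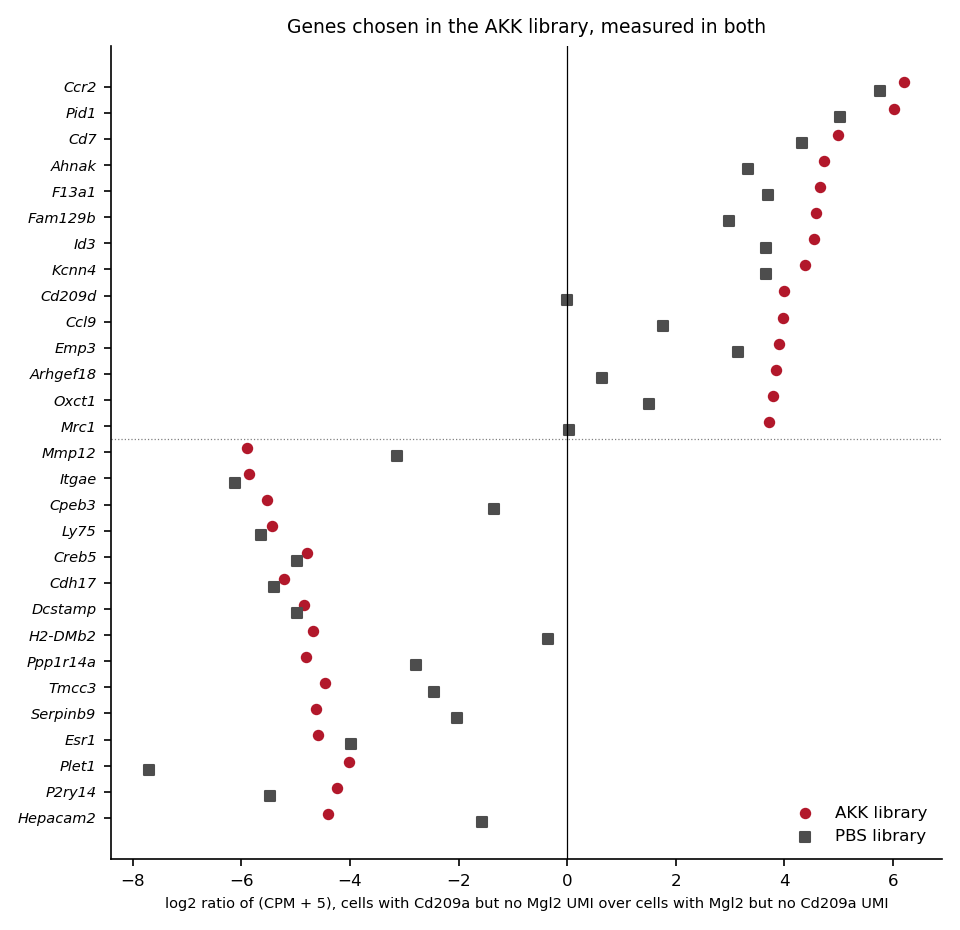
The x axis gives the log2 ratio of CPM + 5 of cells with Cd209a but no Mgl2 UMI over cells with Mgl2 but no Cd209a UMI, for 29 genes chosen in the AKK library (circles) and measured in the PBS library (squares). Of the 14 Cd209a-side genes above the dotted line 13 lie to the right of 0 in PBS, and the 15 Mgl2-side genes below it lie to the left.

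Clustered alone without the rule genes, the cDC2 gave 4 subgroups, described here by their leading genes. Subgroup 1 (33 AKK and 10 PBS cells) was led by F13a1, Pid1, Fn1, Cxcl10 and Ccr2, and 37 of its 43 cells had a Cd209a UMI. Subgroup 2 (7 AKK and 15 PBS cells) was led by Dag1, Gm5861 and Spon1, and 21 of its 22 cells had Mgl2. Subgroup 3 (16 AKK and 3 PBS cells) was led by the cell cycle genes Pclaf, Cenpe and Ect2, had a median of 37104 UMIs per cell, the highest of the 4, and 18 of its 19 cells had Mgl2. Subgroup 4 (7 AKK and 5 PBS cells) was led by Ccr7, Tmem108 and Ccl22, and all 12 of its cells had Ccr7 and 11 had Mgl2. All 8 cells outside the main cluster, 4 from each library, lay in subgroup 1. They held 25.5% of the AKK and 94.7% of the PBS cDC2 UMIs of F13a1. For Cxcl10 these shares were 46.9% and 74.4%, and for Ccr2 9.47% and 20.4%. The leading genes were not drawn up again without these cells. The subgroup sizes are not compared between the libraries, because the genes that define the subgroups differ between them.

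Between subgroups, Itgae stood at 27.0 CPM in subgroup 1, 342 in subgroup 2, 524 in subgroup 3 and 43.2 in subgroup 4. Itgax, the integrin CD11c, ran at 125, 438, 360 and 123 CPM in the same order. Lyz2, a lysozyme of monocytes and macrophages, ran at 640, 64.2, 73.5 and 39.6 CPM. The Ccr7-led subgroup 4 had the highest levels of Cd274 (984 CPM, against 350 to 456 CPM in the others), Ccl17 (897 CPM, against 74.7 to 497) and Zbtb46 (173 CPM, against 19.8 to 79.8). It also had the lowest Irf4 (32.4 CPM, against 99.8 to 140) and the highest Irf8 (487 CPM, against 82.0 to 140). By these genes of the label check, subgroup 4 lay nearer to cDC1 than the other subgroups did. Sirpa, of the same check, had 321 CPM in its AKK and 148 CPM in its PBS cells. The type 2 label is thus less sure for subgroup 4. With a resolution of 1.0 in place of 0.5 the same cells gave 7 subgroups, among them 1 of 19 cells led by Cd7 and Gria3 with 18 AKK cells and 1 PBS cell.

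**Figure D3:**
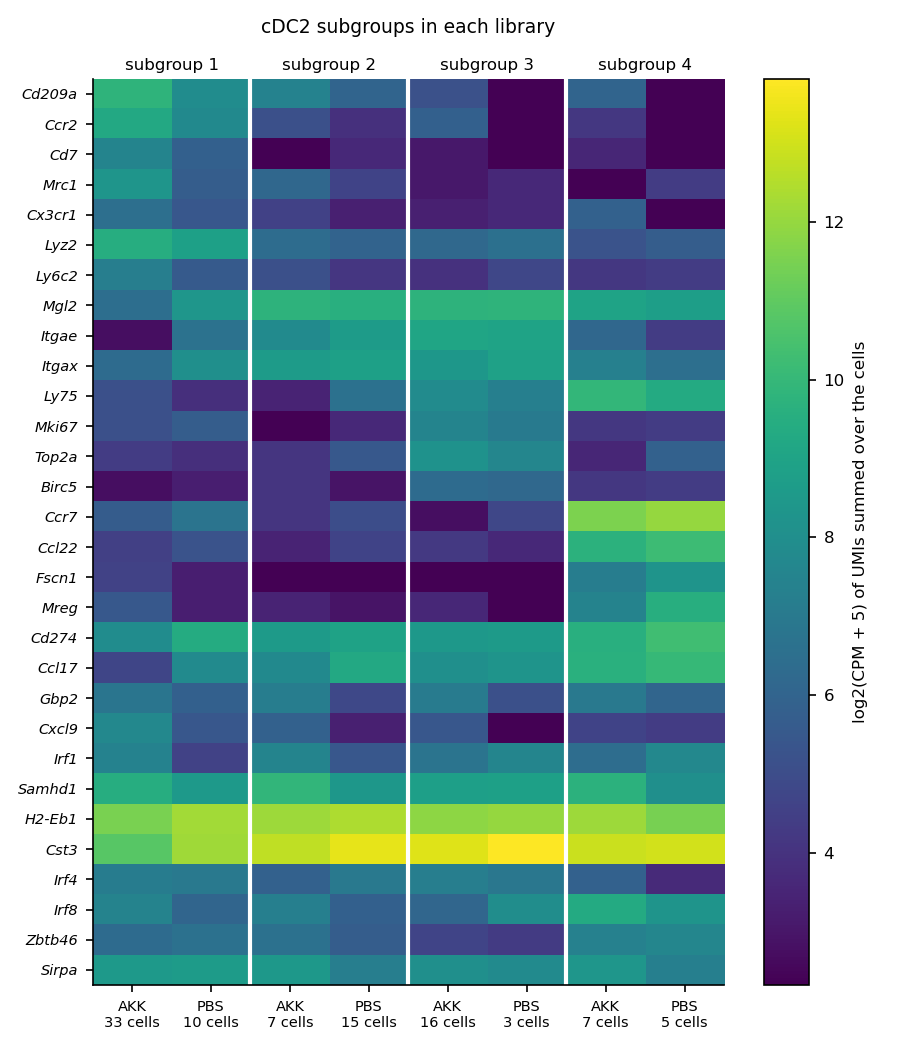
Colour gives log2(CPM + 5) of UMIs summed over the cells of a subgroup in 1 library, with AKK left of PBS in each pair and the number of cells under each column. Rows run from Cd209a-side and monocyte genes over Mgl2-side, cell cycle and maturation genes to interferon, class II and identity genes; Ccr7 is highest in subgroup 4 of both libraries, and columns such as subgroup 3 of PBS rest on 3 cells.

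Across all 96 cells, 5904 genes outside the rule had at least 50 UMIs. Of these, 805 (13.6%) had a CPM at least 1.5-fold higher in AKK than in PBS cDC2, and 440 (7.45%) one at least 1.5-fold lower. Over the 8372 genes with at least 20 UMIs the median log2 ratio of CPM + 5 was 0.05, and 4610 (55.1%) were higher in AKK. In the main cluster, 807 of 5720 genes with at least 50 UMIs were at least 1.5-fold higher and 429 lower. Ratios below are AKK over PBS with their exact conditional binomial interval. The libraries also differed in the mix of cells described above, so values within subgroups 1, 2 and 4 are given beside the sums (subgroup 3 has 3 PBS cells and was left out). The part of that mix in each difference was not tested.

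Genes that respond to interferon-gamma, the T and NK cell cytokine that arms antigen presentation, tended to be higher in AKK cDC2. Of the 11 list members with at least 50 UMIs, 6 were at least 1.5-fold higher and 1 was lower by as much, against 13.6% and 7.45% of all genes. Of 17 measured members 12 were higher, against 55.1% of all genes with at least 20 UMIs. The median log2 ratio was 0.54 (medians of the members' bounds 0.04 to 1.08), and 10 had an interval above 1. In the main cluster the median was 0.39, with 13 of 17 higher, against 4513 of 8217 of all genes. Gbp2, a guanylate-binding GTPase, had 121 CPM in AKK and 37.0 CPM in PBS cDC2, a ratio of 3.29 (2.25 to 4.95), with a UMI in 32 and 13 cells. The immunity-related GTPase Igtp had 19.9 and 5.77 CPM (ratio 3.45, 1.32 to 11.4). The transcription factor Irf1, which carries the signal on, had 132 and 79.7 CPM (1.65, 1.25 to 2.21), but 110 and 87.1 CPM (1.26, 0.94 to 1.71) in the main cluster, where the interval includes 1. Cxcl9, which attracts T cells through Cxcr3, had 103 and 13.9 CPM (7.43, 4.13 to 14.7), yet it was seen in 11 and 4 cells and 60.0% of its AKK UMIs came from 1 cell. Without the top cell of each library Cxcl9 stood at 41.8 CPM in AKK and 4.75 CPM in PBS.

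The start regions of 4 of these genes are shown to set the response elements beside the values. They are the 120 bases before the RefSeq start on GRCm38.p6, written 5′ to 3′ on the gene's strand. Capitals mark matches to the interferon-gamma element GAS (TTCNNNGAA) and to the interferon element ISRE (GAAANNGAAA or, on the other strand, TTTCNNTTTC); in Igtp both occur.
Gbp2, chr3:142620543-142620662, plus strand: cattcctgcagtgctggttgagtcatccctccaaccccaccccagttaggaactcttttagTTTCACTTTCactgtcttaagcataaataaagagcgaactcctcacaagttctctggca
Igtp, chr11:58199436-58199555, plus strand: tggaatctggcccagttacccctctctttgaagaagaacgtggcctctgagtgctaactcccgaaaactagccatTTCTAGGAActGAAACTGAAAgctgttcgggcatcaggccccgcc
Irf1, chr11:53769894-53770013, plus strand: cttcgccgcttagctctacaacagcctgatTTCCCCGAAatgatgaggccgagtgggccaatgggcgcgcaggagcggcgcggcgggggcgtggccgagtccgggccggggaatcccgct
Cxcl9, chr5:92328080-92328199, minus strand: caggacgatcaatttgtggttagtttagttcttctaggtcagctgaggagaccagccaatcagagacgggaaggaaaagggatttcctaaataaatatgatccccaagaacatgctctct

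The Gbp2 stretch held an ISRE match, Igtp a GAS and an ISRE match, Irf1 a GAS match, and Cxcl9 no match in these letters. Irf1 has a further start in the table, whose window held neither element and is not shown. Of the 17 measured list genes 12 were found in the RefSeq table, with 14 windows of 300 bases (250 before and 50 after the start). GAS was found in 5 of the 14 windows (35.7%) and in 2726 of all 32851 such windows (8.30%). ISRE was found in 8 of 14 (57.1%) and in 1131 of all windows (3.44%). The list was made of genes that respond to interferon, so larger shares than over all windows follow from that choice. Socs1, with a lower value in AKK, held 2 ISRE matches and is not shown. A match is a description of the letters and shows no binding in these cells.

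Within subgroups, Gbp2 had 106 CPM in AKK and 52.8 CPM in PBS cells of subgroup 1 (ratio 2.00, 1.04 to 4.22). In subgroup 2 it had 140 and 22.7 CPM (6.16, 2.75 to 15.1), and in subgroup 4 it had 121 and 62.4 CPM (1.93, 0.80 to 5.13). The ratio was above 1 in each, with an interval that included 1 in subgroup 4. In subgroup 1 without its outside cells Gbp2 had 112 and 90.0 CPM (1.25, 0.63 to 2.74), and that interval also includes 1. Samhd1, an interferon-induced dNTP hydrolase, had 645 CPM in AKK and 346 CPM in PBS cDC2 (1.86, 1.63 to 2.13), with a UMI in 63 and 32 cells. Its ratio was 2.05 (1.60 to 2.67) in subgroup 1, 2.77 (2.18 to 3.53) in subgroup 2 and 3.27 (2.22 to 4.96) in subgroup 4. Irf1 turned round between subgroups: 164 CPM in AKK and 19.2 CPM in PBS cells of subgroup 1 (a ratio of 6.01, 1.59 to 50.9, without its outside cells), but 80.3 and 203 CPM in subgroup 4 (0.40, 0.18 to 0.81). Members with values on the other side were Socs1, a feedback inhibitor of cytokine signalling, with 12.4 CPM in AKK and 21.9 CPM in PBS (0.56, 0.28 to 1.13, and 0.45, 0.21 to 0.98 in the main cluster), and Wars, with 26.8 and 40.4 CPM (0.66, 0.41 to 1.08), both with intervals over all cells that include 1. T cells had 61.9 CPM of Gbp2 in AKK and 35.1 CPM in PBS, and 298 and 228 CPM of Samhd1. The list's median in T cells was 0.33, in cDC1 1.16, in classical monocytes 0.90 and in C1q macrophages 0.29, so the AKK library was higher in each population measured.

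Type I interferon genes were divided: 9 of 18 measured members were higher and 9 lower, with a median of -0.03. Over all genes with at least 20 UMIs 55.1% were higher. Of 13 with at least 50 UMIs, 2 were at least 1.5-fold higher and 7 lower, against 13.6% and 7.45% of all genes. In the main cluster 1 of 9 was higher by as much and 2 were lower. Ifit1, an interferon-induced RNA-binding protein, had 7.55 CPM in AKK and 48.5 CPM in PBS cDC2 (0.16, 0.07 to 0.31), but 95.2% of its PBS UMIs lay in the 4 PBS cells outside the main cluster. In the main cluster it had 7.87 CPM in AKK and 2.60 CPM in PBS (3.03, 0.66 to 28.1). Ifih1, the RNA sensor MDA5, had 92.6 and 308 CPM (0.30, 0.24 to 0.37) over all cells and 92.3 and 196 CPM (0.47, 0.37 to 0.60) in the main cluster, so its direction held there. Oasl1, a relative of the RNA-sensing oligoadenylate synthetases, had 31.6 and 69.3 CPM over all cells (0.46, 0.30 to 0.68) and 30.8 and 58.5 CPM (0.53, 0.34 to 0.82) in the main cluster.

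Maturation and migration genes were lower in AKK cDC2. The 18 measured members all had at least 50 UMIs. Of them 10 were at least 1.5-fold lower and 2 higher, against 7.45% and 13.6% of all genes. An interval below 1 was found for 12, and the median was -0.67 (-1.03 to -0.30). Ccr7 had 330 CPM in AKK and 639 CPM in PBS cDC2, a ratio of 0.52 (0.46 to 0.59), with a UMI in 16 and 15 cells. Ccl22, a chemokine that calls regulatory T cells and other Ccr4-bearing cells, had 98.8 and 193 CPM (0.51, 0.41 to 0.64). Traf1, a signal adaptor of the TNF receptor family, had 108 and 269 CPM (0.40, 0.32 to 0.49). Mreg, a protein of lysosome maturation, had 37.1 and 112 CPM (0.33, 0.23 to 0.47), and the inhibitory ligand Cd200 had 11.7 and 55.4 CPM (0.21, 0.11 to 0.37). The exceptions past 1.5-fold were Il4i1, an amino acid oxidase, with 34.3 and 18.5 CPM (1.86, 1.04 to 3.49, and 1.72, 0.96 to 3.23 in the main cluster), and Marcksl1, with 117 and 76.2 CPM (1.54, 1.15 to 2.08).

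Much of the Ccr7 came from subgroup 4, which was 7 of 63 AKK cells and 5 of 33 PBS cells. By Irf4 and Irf8 the type 2 label is less sure for that subgroup. Inside subgroup 4, Ccr7 had 3026 CPM in AKK and 4044 CPM in PBS cells (0.75, 0.66 to 0.85), and Ccl22 had 837 and 1179 CPM (0.71, 0.56 to 0.91). The list's median there was -0.74, with 4 of 18 members higher and 14 lower, whereas it was -0.02 in subgroup 1 and -0.14 in subgroup 2. Of all genes measured in subgroup 4, 1214 of 2430 were higher. Traf1 was lower in all 3 subgroups with enough cells, with ratios of 0.44 (0.32 to 0.62), 0.56 (0.32 to 0.93) and 0.47 (0.32 to 0.70). A Ccl22 UMI was seen in 9 of 56 thinned AKK cDC2 (16.1%) and 12 of 30 thinned PBS cDC2, a difference of -23.9 points (-43.1 to -4.56), against 1% and 1.68% of T cells. Before thinning the Ccl22 shares were 25.4% and 39.4%. In cDC1 the list's median was 0.07 and in C1q macrophages 0.04, while in monocytes it was -0.29 and in T cells -0.20.

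Of 16 measured genes for signals that T cells read on dendritic cells, 10 were lower and 6 higher in AKK cDC2. The share higher over all genes with at least 20 UMIs was 55.1%. Cd274 (PD-L1, on chr19:29367455-29388095), the ligand of PD-1, had 350 CPM in AKK and 626 CPM in PBS cDC2, a ratio of 0.56 (0.49 to 0.63), with a UMI in 52 and 30 cells. Pdcd1lg2 (PD-L2), the other PD-1 ligand, had 180 and 283 CPM (0.64, 0.53 to 0.76). Cd80 had 486 and 694 CPM (0.70, 0.63 to 0.78) and Cd86 had 1259 and 1476 CPM (0.85, 0.79 to 0.92), both ligands of CD28 and CTLA-4. Cd40, which takes T cell help, had 33.6 and 32.3 CPM, and its interval of 0.64 to 1.72 includes 1. On the other side Cd48, a ligand of CD244, had 118 and 79.7 CPM (1.48, 1.11 to 1.99). Of the 13 members with at least 50 UMIs 3 were at least 1.5-fold lower and 0 higher, against 7.45% and 13.6% of all genes. The median of the 16 measured was -0.31 (-0.68 to 0.29), with bounds that include 0. Within subgroups 1, 2 and 4 the Cd274 ratio was 0.36 (0.28 to 0.46), 0.79 (0.58 to 1.05) and 0.61 (0.48 to 0.79), and that of Cd80 was 0.58, 0.75 and 0.60. In subgroup 1 without its outside cells, Cd274 had 240 CPM in AKK and 360 CPM in PBS (0.67, 0.46 to 0.98). Pdcd1lg2 was 0.83 (0.62 to 1.12) in subgroup 4, 0.98 (0.64 to 1.47) in subgroup 2 and 1.83 (0.69 to 6.13, from 25 and 5 UMIs) in subgroup 1. Its difference over all cells thus did not stand within any of these subgroups.

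**Figure D4:**
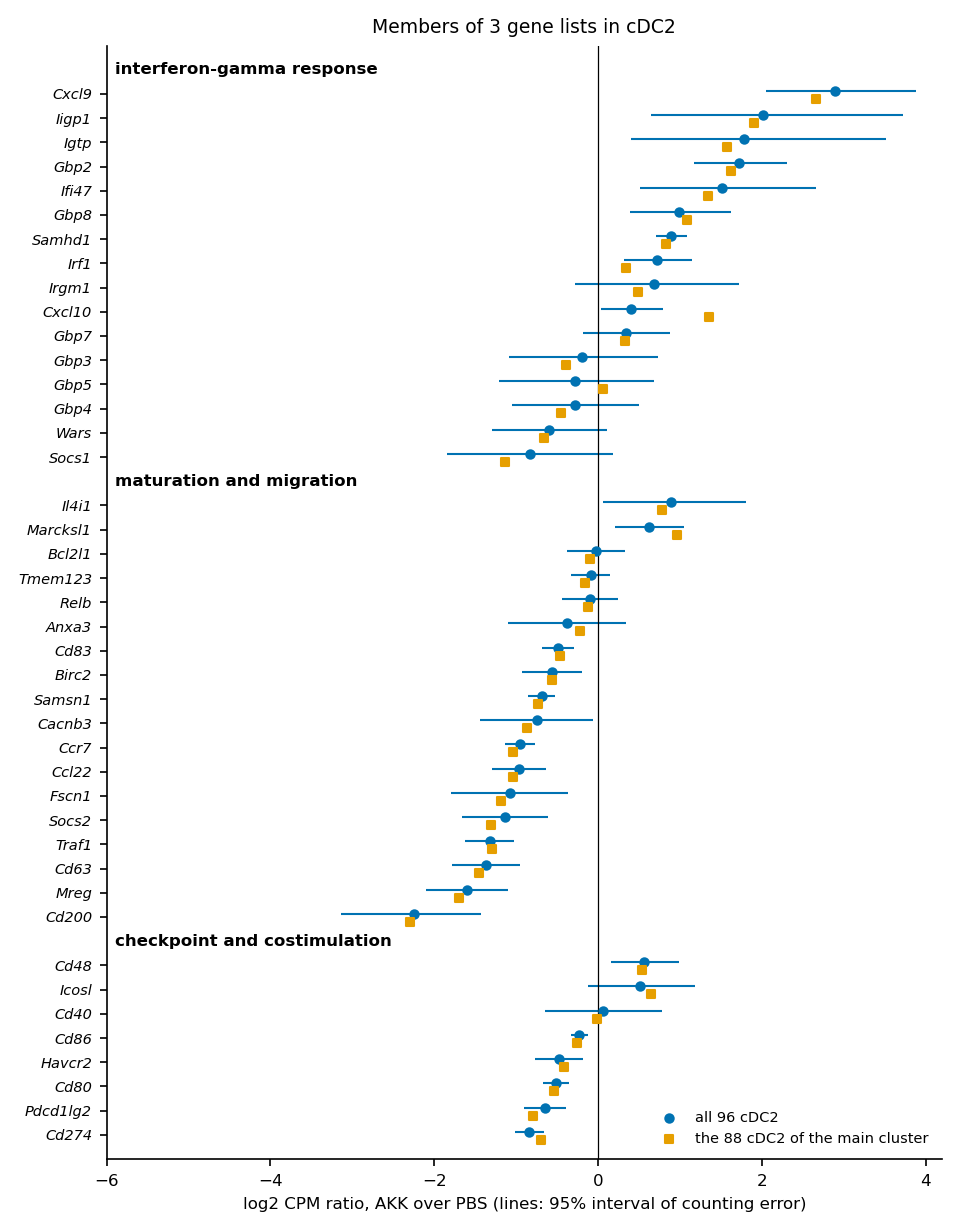
The x axis gives the log2 CPM ratio, AKK over PBS, of members of 3 gene lists, with circles for all 96 cDC2, lines for their 95% interval of counting error, and squares for the 88 cDC2 of the main cluster. Cxcl9 (7.43-fold) and Gbp2 (3.29-fold) lie to the right among interferon-gamma genes, and Ccr7 (0.52-fold) and Cd274 (0.56-fold) lie to the left; circle and square lie farthest apart for Cxcl10, at 2.55-fold in the main cluster and 1.33-fold over all cells.

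Chemokines and cytokines depended on the cells counted. Ccl17, a ligand of Ccr4 made by dendritic cells, had 213 CPM in AKK and 535 CPM in PBS cDC2 (0.40, 0.34 to 0.46), with a UMI in 28 and 22 cells. It kept that direction in the main cluster (223 and 581 CPM, 0.38) and in subgroups 1, 2 and 4 (0.10, 0.35 and 0.76). Cxcl16, the ligand of Cxcr6, had 110 and 171 CPM (0.65, 0.51 to 0.81). In contrast Ccl4, an inflammatory chemokine, had 250 and 625 CPM (0.40, 0.35 to 0.46) over all cells but 238 and 200 CPM (1.19, 0.98 to 1.45) in the main cluster, as 71.5% of its PBS UMIs lay in the 4 outside cells. Over all cells 8 of 12 chemokines with at least 50 UMIs were at least 1.5-fold lower and 2 were higher. The shares over all genes were 7.45% and 13.6%. The list's median was -0.61 over all cells and -0.05 in the main cluster. In the main cluster 4 of 12 were still at least 1.5-fold lower and 3 were higher. Those that stayed lower were Ccl17, Ccl22 (0.49, 0.39 to 0.61), Cxcl16 (0.63, 0.50 to 0.80) and Ccl2 (0.50, 0.30 to 0.84).

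Tnf had 27.4 CPM in AKK and 132 CPM in PBS cDC2 (0.21, 0.14 to 0.30), and 27.9 and 27.3 CPM (1.02, 0.59 to 1.83) in the main cluster, with 81.6% of its PBS UMIs in the outside cells. Il1b, the main inflammatory cytokine in these cells by cells reached (61 of 63 and 32 of 33), had 1319 and 1476 CPM (0.89, 0.83 to 0.96), or 1301 and 1354 CPM (0.96, 0.89 to 1.04) in the main cluster. Csf1, a growth factor of macrophages, had 23.3 and 3.46 CPM (6.74, 2.12 to 34.3, from 34 and 3 UMIs). Il12b, a subunit of the T cell stimulus IL-12, had 4 UMIs in AKK and 0 in PBS, too few for a fold. For NF-kB and Toll-like receptor targets 0 of 19 members with at least 50 UMIs were at least 1.5-fold higher and 6 lower. The shares over all genes were 13.6% and 7.45%. The list's median was -0.26 over all cells and -0.06 in the main cluster. There 2 of 18 members were at least 1.5-fold higher and 1 was lower, against 807 and 429 of 5720 genes.

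Antigen presentation differed between the classes of MHC, by little. Over all genes with at least 20 UMIs 55.1% were higher in AKK cDC2. For MHC class I, 15 of 17 measured members were higher in AKK cDC2 with a median of 0.25, but 0 passed 1.5-fold either way. In the main cluster 12 of 17 were higher, and in subgroup 1 of that cluster 6 of 17 were, with a median of -0.10. Over all genes these counts were 4513 of 8217 and 2826 of 4683. H2-K1 had 1161 CPM in AKK and 965 CPM in PBS (1.20, 1.11 to 1.31), and B2m, the class I light chain, had 1262 and 1132 CPM (1.12, 1.03 to 1.21, and 1.07, 0.98 to 1.16 in the main cluster). For class II, 4 of 12 were higher, the median was -0.13, and 1 of 11 passed 1.5-fold, H2-Ob. Over all genes 13.6% were higher and 7.45% lower by as much. The class II list holds H2-Ab1, on which the cells were selected, and it is counted in every class II value given here. H2-Eb1, a class II chain, had 3573 and 4628 CPM (0.77, 0.74 to 0.80), and the invariant chain Cd74 had 9524 and 10450 CPM (0.91). H2-Ob, which tempers peptide loading, had 74.8 and 28.9 CPM (2.59, 1.67 to 4.18), and Ciita, the master regulator of class II genes, had 231 and 184 CPM (1.26, 1.04 to 1.53). The class II direction depended on the subgroup. H2-Eb1 had 2905 CPM in AKK and 4735 CPM in PBS cells of subgroup 1 (0.61, 0.57 to 0.66), but 4539 and 2834 CPM in subgroup 4 (1.60, 1.41 to 1.82). The list's median was -0.44 in subgroup 1, 0.15 in subgroup 2 and 0.55 in subgroup 4. In classical monocytes it was 0.47 and in C1q macrophages 0.46, and in cDC1 -0.42. Cst3, the cathepsin inhibitor cystatin C, had 6083 and 9528 CPM over all cDC2 (0.64, 0.62 to 0.66).

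Several genes of the Cd209a side were at least 1.5-fold higher in AKK cDC2. They had been chosen in the AKK library alone, so their direction was partly set by that choice and is only described. Of 13 C-type lectin and scavenger receptor genes with at least 50 UMIs, 7 were higher by as much, against 13.6% of all genes. Ccr2 (chr9:124101950-124113557) had 261 CPM in AKK and 56.6 CPM in PBS cDC2, a ratio of 4.61 (3.42 to 6.34), with a UMI in 35 and 9 cells. Pid1 had 449 and 112 CPM (4.01, 3.24 to 5.02, and 13.1, 8.95 to 20.1 in the main cluster) and Cd7 had 70.0 and 16.2 CPM (4.33, 2.47 to 8.2). Mrc1 had 131 and 24.2 CPM (5.41, 3.44 to 8.93), with 46.1% of its AKK UMIs in 1 cell, and 71.8 and 15.4 CPM without the top cell of each library. Without the Flt3 requirement its log2 ratio turned to -0.11. Cd209d, a further DC-SIGN relative, had 44.6 and 2.31 CPM (19.3, 5.14 to 163, from 65 and 2 UMIs), in 16 AKK cells and 1 PBS cell. Cx3cr1, the fractalkine receptor, had 43.9 and 12.7 CPM (3.46, 1.81 to 7.27). Of the lectin and scavenger receptor genes 0 were lower by as much, and the median was 0.62 (0.01 to 1.26) over 17. F13a1, a coagulation factor of the Cd209a side, went the other way over all cells, with 75.5 and 109 CPM (0.70, 0.52 to 0.93), and had 58.7 and 6.50 CPM (9.02, 3.71 to 28.5) in the main cluster. Among genes associated with the mouse subset called cDC2B, 4 of 7 were higher by as much and 0 lower, with a median of 0.88; Lyz2 had 316 and 157 CPM (2.01, 1.66 to 2.45) and Tmem176b, a channel protein, 147 and 64.7 CPM (2.27, 1.69 to 3.11). For the whole list of cytokine and chemokine receptors, Ccr2 included, the median was 0.09, with 3 of 27 members at least 1.5-fold higher and 1 lower, against 13.6% and 7.45% of all genes.

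Part of these differences stood beside the larger number of AKK cells with Cd209a, which the same genes mark. Within subgroup 1 the ratios were smaller for Ccr2 (603 CPM in AKK and 216 CPM in PBS, 2.79, 2.04 to 3.9), Pid1 (2.52, 2.01 to 3.20) and Cd7 (3.30, 1.76 to 6.82). With the outside cells also left out, 29 AKK and 6 PBS cells remained, and Ccr2 had 604 and 315 CPM (1.92, 1.35 to 2.80), Cd7 195 and 98.9 CPM (1.97, 1.05 to 4.07) and Pid1 1158 and 153 CPM (7.57, 4.69 to 13.1). Mrc1 had 149 UMIs in those AKK cells and 0 in the PBS cells. In cells with Mgl2 and without Cd209a (26 AKK, 21 PBS), the interferon-gamma median was 0.52 over 17 members and the maturation median -0.91 over 18, while that of the lectins was -0.02 over 9. Gbp2 there had 156 CPM in AKK and 38.9 CPM in PBS (4.01, 2.53 to 6.64), and Ccr7 had 402 and 932 CPM (0.43, 0.37 to 0.50). T cells, which also use Ccr2, had 168 CPM of it in AKK and 75.7 CPM in PBS.

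Genes of dendritic cell identity were mixed, with 13 of 24 higher, near the 55.1% of all genes, and a median of 0.15. Of 23 with at least 50 UMIs, 3 were at least 1.5-fold higher and 4 lower. Over all genes these shares were 13.6% and 7.45%, so the higher count was near that of all genes. Bcl11a, a transcription factor of dendritic and lymphoid cells, had 73.4 CPM in AKK and 32.3 CPM in PBS cDC2 (2.27, 1.49 to 3.58). Sirpa had a ratio of 1.47 (1.24 to 1.75), which was 2.33 (1.58 to 3.42) in subgroup 2 and 2.17 (1.25 to 3.9) in subgroup 4 but 0.94 (0.72 to 1.23) in subgroup 1. Itgax had 221 and 358 CPM (0.62, 0.53 to 0.72). Irf4 had a ratio of 1.20 (0.93 to 1.57) and Zbtb46 of 0.87 (0.63 to 1.22), both with intervals that include 1, and Irf8 of 1.44 (1.14 to 1.82).

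Cell cycle genes were mixed, with 12 of 21 measured members higher and 9 lower, near the 55.1% higher over all genes. Among the members higher in AKK cDC2, Mki67, a marker of cycling cells, had 83.7 CPM in AKK and 37.0 CPM in PBS (2.27, 1.52 to 3.46), Top2a 120 and 57.7 CPM (2.08, 1.51 to 2.91), and Ube2c, which drives exit from mitosis, 65.2 and 4.62 CPM (14.1, 5.34 to 52.9). Among the lower members, Pclaf, a partner of the replication clamp, had 34.3 and 79.7 CPM (0.43, 0.29 to 0.63) and Mcm3, a helicase subunit, 16.5 and 48.5 CPM (0.34, 0.20 to 0.57). Single cells carried much of this, as 36.8% of the AKK Ube2c UMIs and 58.0% of the PBS Pclaf UMIs came from 1 cell each. The list's median was 0.17, with 5 of 13 at least 1.5-fold higher and 3 lower, against 13.6% and 7.45% of all genes. A Mki67 UMI was seen in 23.2% of thinned AKK and 26.7% of thinned PBS cDC2 (30.2% and 27.3% before thinning), against 27.5% and 22.7% of thinned T cells.

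The genes farthest from 1 over all cDC2 included some that were as high in T cells. Of the 12 ranked first on the higher side, the antibody genes Iglc1, Igha and Jchain differed alike in T cells. Iglc1 had 99.5 CPM in AKK and 3.46 CPM in PBS cDC2, and 108 and 2.27 CPM in T cells. Igha had 712 and 145 CPM in cDC2, and 677 and 123 CPM in T cells. A Jchain UMI was seen in 76.8% of thinned AKK and 13.3% of thinned PBS cDC2, and in 71.0% and 20.2% of T cells, so these shares are read as background and not as expression. Sntb1, a syntrophin, had 39.1 CPM in AKK cDC2 and 0 UMIs in PBS cDC2, at least 11.3-fold higher against a floor of 3 UMIs, with 56.1% of its UMIs in 1 cell and 424 and 305 CPM in T cells. On the lower side, Tmem108 had 11.0 CPM in AKK and 197 CPM in PBS cDC2 (0.06, 0.03 to 0.09), and 46.9 and 1304 CPM (0.04, 0.01 to 0.08) within the Ccr7-led subgroup 4. Dach1 (4.12 and 80.8 CPM) had 75.7% of its PBS UMIs in 1 cell and 3.58 and 5.20 CPM in the main cluster (0.69, 0.15 to 3.47), and Met (14.4 and 72.7 CPM) had 96.8% of its PBS UMIs in the outside cells. Car2, a carbonic anhydrase, had 8.92 and 79.7 CPM (0.11, 0.06 to 0.20), in 8 and 10 cells.

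**Figure D5:**
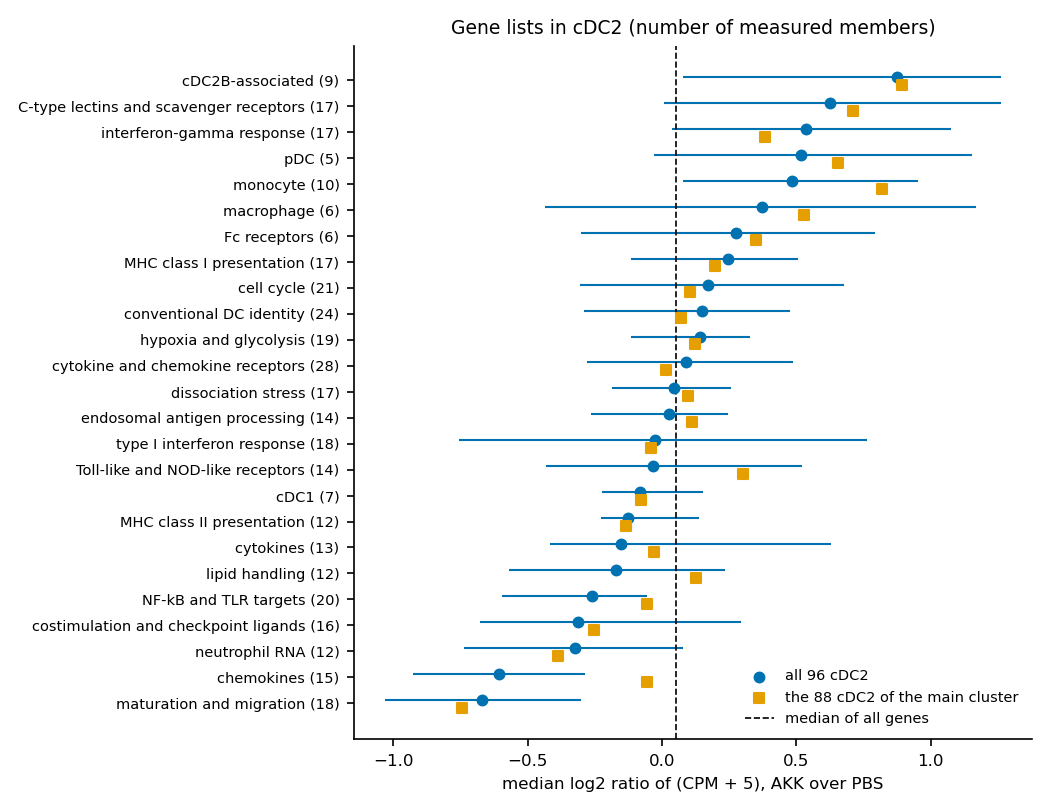
The x axis gives the median log2 ratio of CPM + 5, AKK over PBS, of each gene list in cDC2, with circles and lines for all 96 cells (lines run between the medians of the members' interval bounds), squares for the 88 cells of the main cluster, and a dashed line at the median of all genes (0.05). The interferon-gamma list lies at 0.54 (0.39 in the main cluster) and the maturation list at -0.67 (-0.74), whereas the chemokine list lies at -0.61 over all cells and at -0.05 in the main cluster.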

How the data were processed

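The authors deposited 1 matrix of raw UMI counts per library, with no normalization. Per the file headers, these came from Cell Ranger 7.1.0. The submitters' processing notes name version 5.0.1 of that tool and the genome build mm10. Neither source says whether intronic reads were counted or which annotation was used. GENCODE release M21 held 32235 of the 32285 identifiers and gave the gene coordinates.

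The members, gene lists and comparisons were chosen with earlier results of these data known. Kept barcodes numbered 6517 of 6610 in AKK and 4833 of 5088 in PBS. UMIs were summed over the cells of a library, scaled to CPM, and compared as a ratio with an exact conditional binomial 95% interval. Shares have exact (Clopper-Pearson) intervals and their differences Newcombe intervals. All intervals cover counting error only, since cells of 1 library are not replicates. List medians use log2 of CPM + 5 over the members that reached 20 UMIs, and a list needed 5 such members. The other populations were chosen by UMI rules of the same kind. For shares, cells were thinned to the 10th percentile of the cDC2 totals, which left 200 of 661 AKK and 119 of 335 PBS T cells.

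All kept barcodes were clustered on 2000 variable genes (30 components, 15 neighbours, Leiden resolution 1.0), and the cDC2 on 1000 (10, 10 and 0.5) without the rule genes. No doublets were removed in the values given; Scrublet was used for an alternative. Named genes were the 12 highest and 12 lowest by the interval bound nearest to 1 (at least 50 UMIs, in at least 10% of cells of the higher library), the 2 highest and 2 lowest of each list, a fixed set of dendritic cell genes and the subgroups' leading genes; genes named beside these are list members or genes of the lectin split chosen after their values were seen. Python 3.11.15, numpy 2.4.6, scipy 1.17.1, pandas 2.3.3, scanpy 1.11.5, scikit-learn 1.9.0 and matplotlib 3.10.9 were used, and the ratio step was tested on simulated data. Alternatives are given in the closing section. A few genes are not reported here.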

Additional observations from a re-analysis of the deposited data

Results flagged for a closer look

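For some named genes the ratio of AKK over PBS in cDC2 and that in another population of the same libraries had intervals on opposite sides of 1. These differences between populations were not tested, and each rests on 1 library per group.

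Of the maturation genes, Ccr7 was lower in AKK cDC2 (ratio 0.52) and higher in AKK cDC1, with a ratio of 37.2 (10.0 to 311). Few cells can carry such a value, as 1 PBS cDC2 alone held 146 Ccr7 UMIs. Ccl22 was lower in AKK cDC2 (0.51) and higher in AKK C1q macrophages, with a ratio of 2.09 (1.20 to 3.67). Ccl17 was lower in AKK cDC2 (0.40) but higher in classical monocytes (1.85, 1.26 to 2.78) and C1q macrophages (1.69, 1.44 to 1.99). The PD-1 ligand Pdcd1lg2 was lower in AKK cDC2 (0.64) and higher in cDC1 (1.62, 1.26 to 2.10) and C1q macrophages (2.71, 2.38 to 3.09).

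Of the receptors, Mrc1 was higher in AKK cDC2 (5.41) and lower in C1q macrophages, with a ratio of 0.478 (0.453 to 0.504). Its cDC2 log2 ratio was -0.11 without the Flt3 requirement. Cx3cr1 was likewise higher in AKK cDC2 (3.46) and lower in C1q macrophages, at 0.536 (0.470 to 0.611). Cst3 was lower in AKK cDC2 (0.64) and higher in C1q macrophages, at 1.55 (1.49 to 1.61), and Car2 was lower in AKK cDC2 (0.11) and higher in classical monocytes, at 1.83 (1.02 to 3.38).

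Among cell cycle genes, Mki67 was higher in AKK cDC2 (2.27) and lower in C1q macrophages, at 0.592 (0.492 to 0.710). Pclaf was lower in AKK cDC2 (0.43) and higher in cDC1, at 120.7 (21.4 to 4797), and in C1q macrophages, at 2.35 (1.79 to 3.09). Mcm3 was lower in AKK cDC2 (0.34) and higher in cDC1, at 6.07 (2.60 to 17.4), and in classical monocytes, at 1.53 (1.25 to 1.88). The cDC1 values come from 28 AKK and 19 PBS cells. How the UMIs of Ccr7, Pclaf and Mcm3 were spread over those cells is not given here, and the intervals do not cover it.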

How the results depend on the processing

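No paired analysis was possible because each group has 1 library. The rule set how many cells counted: 63 AKK and 33 PBS as given, 119 and 72 without the Flt3 requirement, 53 and 23 with a C1q sum of at most 1, and 60 and 33 with likely doublets removed. The difference in the cDC2 share stayed between 0.260 and 0.337 percentage points over the alternatives run. A limit of 2 on S100a8 and S100a9 UMIs left 1 AKK and 0 PBS cells and gave no value. Of the values of lists that answer a comparison, 68 kept within their spread and 2 moved: the MHC class II median was -0.29 with a C1q sum of at most 1, and the chemokine median was -0.054 in the main cluster only, a setting added after the data were seen. The count of genes past 1.5-fold higher in AKK was 431 with at least 100 UMIs and 4641 with no filter on low counts, and that of genes past 1.5-fold lower in AKK was 244 and 3500, since other numbers of genes were counted. Under the other settings they stayed between 667 and 863 higher and between 417 and 575 lower. Of values of named genes 1093 kept, 129 moved in size and 10 turned round. Without the Flt3 requirement the log2 ratio turned to -0.11 for Mrc1, -0.43 for Ccl9 and -0.29 for Cd36. With a C1q sum of at most 1 it turned to 1.01 for Gm11290 and 0.11 for Srgap1. In the main cluster only it turned to 0.026 for Tnf, 0.76 for Ifit1, 0.98 for Met, 0.49 for Ifit2 and 0.24 for Ccl4, where the cells outside it held 71.5% to 96.8% of the PBS UMIs of these genes; elsewhere the cause was not tested. Genes under 20 UMIs over the 96 cells were not measured.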

Other observations

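Genes of hypoxia and glycolysis had a median log2 ratio of 0.14 over all cDC2, with 11 of 19 higher in AKK, but pointed apart between subgroups. Over all genes with at least 20 UMIs 55.1% were higher in all cDC2. In subgroup 1 (33 AKK and 10 PBS cells) 0 of 19 measured members were higher in AKK and the median was -0.97, against 0.17 for all genes measured there. Of all those genes 3179 of 5255 were higher. In subgroup 2 (7 and 15 cells) 16 of 18 were higher with a median of 0.73, and in subgroup 4 (7 and 5 cells) 17 of 18 were higher with a median of 0.59. Over all genes 2319 of 4427 were higher in subgroup 2 and 1214 of 2430 in subgroup 4. Pgk1, a glycolytic kinase, had 197 CPM in AKK and 264 CPM in PBS cells of subgroup 1 (0.75, 0.54 to 1.05), 565 and 214 CPM in subgroup 2 (2.64, 1.94 to 3.58), and 609 and 219 CPM in subgroup 4 (2.79, 1.81 to 4.42). Gapdh had 510 CPM in AKK and 1104 CPM in PBS cells of subgroup 1 (0.46, 0.39 to 0.55), against 1532 and 955 CPM in subgroup 2 (1.60, 1.36 to 1.88). In subgroup 1 without its outside cells (29 and 6 cells) 0 of 17 were higher, against 2826 of 4683 of all genes, and the list's median was -0.90. The difference between subgroups was not tested.

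Lipid handling genes were mixed, with 5 of 12 higher in AKK cDC2, against 55.1% of all genes, and a median of -0.17. Abcg1, a cholesterol exporter, had 86.5 CPM in AKK and 27.7 CPM in PBS cDC2 (3.12, 2.00 to 5.05), while T cells had 117 and 108 CPM. Fabp5, a fatty acid binding protein, had 236 and 434 CPM (0.54, 0.47 to 0.63). Apoe had 43.2 and 114 CPM (0.38, 0.27 to 0.52), and its T cell levels of 33.9 and 96.7 CPM differed alike.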
